A study of Macaca fascicularis with 12 samples.

Results

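Interleukins are secreted proteins through which leukocytes and the cells of the vessel wall signal to each other, and their genes and those of their receptors were followed through iliac arteries of cynomolgus monkeys (Macaca fascicularis) with plaques of differing size. All probes were taken whose single gene symbol in the platform annotation starts with IL followed by a digit. The rule gave 81 of the 18278 genes that a single symbol names on the array, on 96 of its 54359 probes. Of these 96 probes 95 could be tested, among 53877 tested in all. The remaining one was empty on every array. By role, 39 of the 95 probes were for ligands, 46 for chains of signalling receptors, 5 for antagonists, decoy receptors or binding proteins, and 5 for non-coding transcripts named after an interleukin gene.

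The arteries came from 12 female animals over 20 years old, 1 artery and 1 array per animal. All had been fed a high fat diet for 8 years and had lived without ovaries for 4 years, and none received a treatment. The submitters sorted the animals by the plaque area of the artery into small (n = 4, from 0 to 0.113 mm2, with 2 animals at 0), medium (n = 5, 0.30 to 0.542 mm2) and large (n = 3, 0.61 to 1.003 mm2). No animals on an ordinary diet were part of the comparison, so small plaque was the reference. The labels name the artery as the tissue and no separation of plaque from the wall.

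Most interleukins act through receptors built from a ligand-binding chain and a second chain shared with other cytokines. The common gamma chain IL2RG serves the receptors of IL-2, IL-4, IL-7 and IL-15, the signalling chain gp130 (IL6ST) those of the IL-6 group, and IL10RB those of IL-10, IL-22 and IL-26. In atherosclerosis IL-1, IL-6, IL-12, IL-17 and IL-18 are usually discussed as promoting inflammation of the wall, and IL-10 and the IL-1 receptor antagonist as limiting it.

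The values are linear intensities that the authors had scaled to an array median close to 1. A floor of 0.111 was used, the 5th percentile of all values above 0, which is -3.17 on the log2 scale, and lower readings were raised to it. Array medians ran from 1.00 to 1.01, and the correlation across probes between arrays from 0.919 to 0.972. The probes were human and the RNA was from monkeys, so the brightness of a probe says little about the amount of its transcript, and differences were read within a probe. Smooth muscle transcripts were present throughout, with MYH11 between 287 and 771. The summed intensity of 13 macrophage markers was 69.9 to 131.1 in small, 226 to 401 in medium and 208 to 331 in large arteries. Bright probes weigh most in such a sum: TYROBP read 62.6 to 114 in medium arteries and C1QC 0.433 to 1.16. None of the 13 lay near the floor, and 7 rose in medium and 6 in large against small. The markers did not all go one way: MARCO stood at -0.66 and -0.90, CD68 at -0.44 and -0.66 and C1QB at -0.29 and -0.11 in medium and large, none of them past the threshold. The summed intensity of 8 smooth muscle markers was 1826 to 2658, 768 to 1576 and 1005 to 1645. Of these markers 2 were lower in medium (MYLK and SMTN) and 1 in large (MYLK). In bulk tissue, fewer cells of a type and less RNA per cell cannot be told apart.

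Arteries with medium plaque were first compared with those with small plaque. The receptor chain IL10RB rose and the ligand IL17B fell, and these were the only calls among the 95 probes at an adjusted p under 0.05 (limma, Benjamini-Hochberg over all tested probes). That is 1 riser, 1.05% of the members, against 1.97% of all tested probes, and 1 faller, also 1.05%, against 1.17% of all. In arteries with large plaque IL10RB again rose against small and no member fell, against 0.948% of all probes that rose and 0.197% that fell. In both comparisons the share of interleukin probes called was therefore near or below that of the array, 2.11% against 3.14% in medium and 1.05% against 1.15% in large. The same 4 small arteries served both comparisons.

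IL10RB encodes the accessory chain that completes the receptors for IL-10, IL-22, IL-26 and the lambda interferons. Its intensity was 0.401, 0.211, 0.288 and 0.349 in the 4 small arteries. It was 0.847, 0.730, 1.31, 1.14 and 1.62 in the 5 medium arteries and 0.684, 0.789 and 0.923 in the 3 large ones. Every artery of the medium and large groups lay above every small one, and medium and large overlapped. The log2 means were -1.72 ± 0.40 (SD, n = 4) in small, 0.12 ± 0.47 (SD, n = 5) in medium and -0.33 ± 0.22 (SD, n = 3) in large. The rise was 1.83 ± 0.26 log2 units (SE of the fit; limma adjusted p 0.00316) in medium, or 3.57-fold, and 1.38 ± 0.29 (adjusted p 0.0467), or 2.61-fold, in large. Large and medium differed by -0.45 ± 0.28 (adjusted p 0.962).

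The call in medium was kept under all 22 alternative settings, with adjusted p-values from 0.00128 to 0.0181. The call in large lay close to the threshold and was lost under 12 of 22, over which the adjusted p ran from 0.0287 to 0.179 and the rise from 1.21 to 1.52. Single arteries whose removal ended it were small replicates 2 (adjusted p 0.112), 3 (0.0835) and 4 (0.0662), medium replicates 3 (0.0620) and 4 (0.0632), and large replicates 1 (0.139), 2 (0.0910) and 3 (0.179). The summed macrophage markers were also higher in every artery with medium or large plaque than in the small ones, though 3 of the 13 stood lower on average, and their part in the rise of IL10RB was not tested.

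The other parts of the IL-10 receptor system did not pass. IL10RA, the chain that binds IL-10 itself, had intensities of 0.388, 0.194, 0.319 and 0.535 in small, 0.616, 0.581, 2.20, 0.588 and 0.580 in medium and 0.514, 0.835 and 0.357 in large arteries. All 5 medium arteries lay above all 4 small ones, but the highest value came from a single artery, medium replicate 3, and large and small overlapped. The differences were 1.19 ± 0.44 (limma adjusted p 0.170) in medium and 0.67 ± 0.50 (adjusted p 0.550) in large. IL10, the ligand, ranged from 1.06 to 2.15 over the 12 arteries. It differed by 0.11 in medium (95% interval -0.43 to 0.65) and -0.03 in large (-0.65 to 0.58), so differences of 2-fold, or 1 log2 unit, lie outside both intervals. Of the 13 probes for the IL-10 family and its receptors, 7 were higher in medium than in small and 4 in large, with medians of 0.11 and -0.07.

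**Figure D1:**
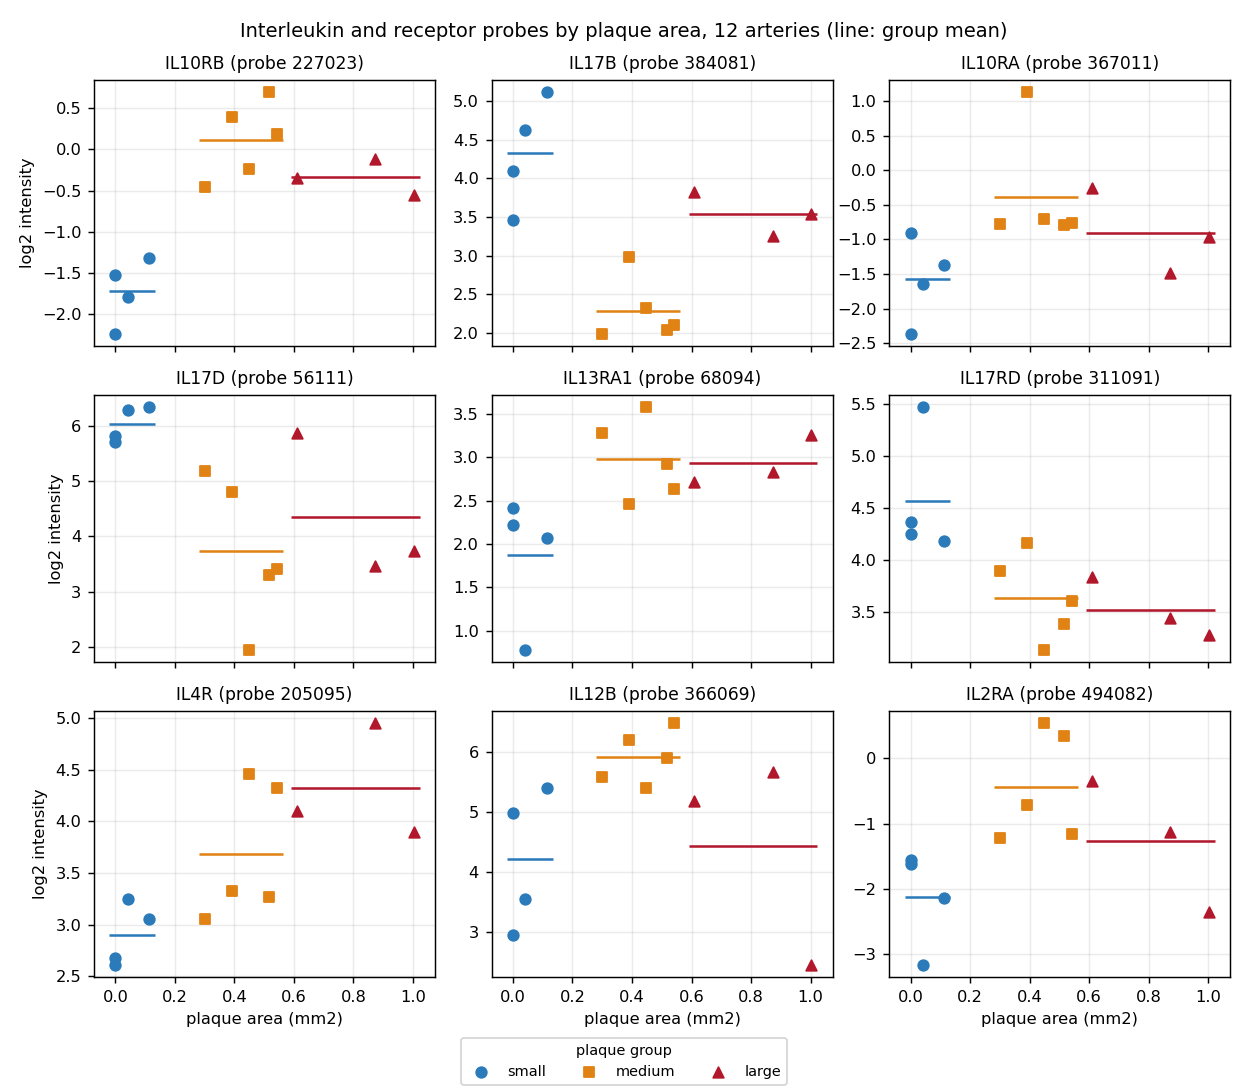
Log2 intensity of 9 probes against plaque area in mm2, 1 point per artery, with small as circles, medium as squares and large as triangles and a line at each group's mean. IL10RB was higher in all 8 medium and large arteries than in the 4 small ones, IL17B was lower in every medium artery than in any small or large one, and IL12B and IL17D varied widely within groups.

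IL17B, a ligand of the IL-17 family that binds IL17RB, showed another order. Its intensity was 34.8, 17.2, 24.7 and 11.0 in small arteries, 5.00, 3.96, 7.91, 4.32 and 4.10 in medium and 11.6, 14.2 and 9.53 in large ones. The medium arteries lay below all arteries of the other groups, whereas small and large overlapped. The log2 means were 4.33 ± 0.71 (SD, n = 4), 2.29 ± 0.41 (SD, n = 5) and 3.54 ± 0.29 (SD, n = 3). IL17B fell by 2.04 ± 0.32 log2 units in medium arteries (SE; limma adjusted p 0.00562), where small stood 4.11-fold above medium, and this call was kept under all 22 alternatives (adjusted p 0.00166 to 0.0260). In large arteries the difference from small was -0.79 ± 0.36 (adjusted p 0.310). Large minus medium was 1.25 ± 0.35, with an unadjusted p of 0.00345 and an adjusted p of 0.793, and no probe of the array passed in that comparison.

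IL17D, a more distant ligand of that family, had the largest difference of any member, in the same direction, but its spread was wide. Its intensities were 80.7, 56.3, 78.1 and 52.4 in small, 3.86, 36.2, 28.0, 10.6 and 9.89 in medium and 13.3, 58.5 and 11.0 in large arteries. All 5 medium arteries lay below the small ones, while 1 large artery, replicate 2, lay within the small range. The difference was -2.31 ± 0.63 in medium (limma adjusted p 0.0738) and -1.68 ± 0.72 in large (adjusted p 0.279). The medium value passed without medium replicate 2 (0.0416) or large replicate 2 (0.0480), in a range of 0.0416 to 0.171 over the alternatives.

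IL17RD, a receptor-like chain that also restrains fibroblast growth factor signalling, had intensities of 18.2, 19.1, 44.4 and 20.7 in small arteries on its brighter probe. They were 8.82, 14.9, 18.0, 12.2 and 10.4 in medium and 9.71, 14.3 and 10.9 in large ones. Every medium and large artery lay below every small one, and small replicate 3 was far above the other 3. The differences were -0.93 ± 0.29 (limma adjusted p 0.111) and -1.05 ± 0.33 (adjusted p 0.148), and its dimmer probe gave -1.14 and -0.52. IL17RA, the chain shared by most IL-17 receptors, differed by -0.34 in medium and -0.65 ± 0.18 in large (adjusted p 0.113), with the 3 large arteries below all others. IL17A, the cytokine of Th17 cells, differed by -0.05 (95% interval -0.40 to 0.30) in medium and -0.09 in large. The receptor chains IL17RC, at -0.11 and -0.12, and IL17RE, at -0.13 and -0.31, had 95% intervals that include 0 in both comparisons.

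Over the 13 probes of the IL-17 ligands and receptors, 3 had a positive difference in medium and 0 in large against small. Their medians were -0.15 and -0.37, beside -0.09 and -0.10 over all probes tested and -0.02 and -0.06 over all members. Grouping by family was done after the values were seen, and with 1 call among 13 it describes these probes only.

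None of the remaining ligands was called. Among those for the type 1 axis, IL12B, the p40 subunit shared by IL-12 and IL-23, had intensities of 42.3, 7.73, 11.7 and 31.5 in small, 42.1, 47.8, 73.2, 89.4 and 59.7 in medium and 5.48, 36.1 and 50.6 in large arteries. The groups overlapped, each of small and large holding both low and high arteries. Its difference was 1.69 ± 0.64 in medium (limma adjusted p 0.186) and 0.21 ± 0.73 in large, where leaving out single arteries gave -0.40 to 1.20. With a within-group SD of 1.09 it was the most variable member, against a median SD of 0.370 over members and 0.415 over all probes. IL12A, the p35 partner, was higher in all 8 medium and large arteries than in small, by the small amounts of 0.33 and 0.34 (adjusted p 0.227 and 0.312). IL18, which acts with IL-12 on T and NK cells, differed by -0.01 in medium (95% interval -0.52 to 0.49).

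IL6, the main inducer of the acute phase response, had intensities of 3.97, 3.38, 5.86 and 3.03 in small arteries. They were 3.58, 3.00, 3.44, 3.67 and 6.10 in medium and 3.92, 3.42 and 4.39 in large ones. The 3 groups overlapped. The 95% interval of its difference was -0.56 to 0.49 in medium and -0.61 to 0.58 in large, so a 2-fold difference either way lies outside both. Its receptor chains gave no call either. IL6R, the IL-6 binding chain, differed by 0.66 and 0.94 on its brighter probe and by -0.09 and -0.19 on its dimmer one. IL6ST differed by 0.14 and -0.05 on its brighter probe and by -0.07 and -0.22 on its dimmer one. Both dimmer probes lay near the floor. Of 8 other measured ligands and receptors of the gp130 group, such as those of oncostatin M and leukaemia inhibitory factor, 0 passed in either comparison, with medians of 0.11 and -0.0023.

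IL15, which sustains memory T cells and NK cells, differed by 0.91 ± 0.35 in medium (limma adjusted p 0.200) and 0.90 ± 0.40 in large (adjusted p 0.302). IL16, a chemoattractant for CD4 cells, had intensities of 0.902, 1.43, 0.791 and 1.78 in small, 4.19, 3.15, 1.11, 2.28 and 3.72 in medium and 1.48, 1.27 and 0.877 in large arteries on its brighter probe. Medium arteries spanned the widest range and overlapped both other groups, at 1.18 ± 0.38 above small (adjusted p 0.124). Without medium replicate 3, the lowest of its group, the difference passed at 1.49 (adjusted p 0.0274), in a range of 0.0274 to 0.257 over the alternatives. Large minus small was 0.03. The dimmer IL16 probe, near the floor, read 0.581, 0.258, 0.404 and 0.233 in small, 0.201, 0.249, 0.122, 0.110 and 0.123 in medium and 0.0839, 0.235 and 0.265 in large arteries. It differed in the opposite direction, by -1.17 ± 0.36 in medium (unadjusted p 0.00659, adjusted p 0.105) and -0.86 ± 0.41 in large, with 1 medium and 1 large artery raised to the floor.

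Of the ligands released by stromal cells, IL33, an alarmin of endothelium and fibroblasts, had intensities of 41.5, 53.8, 27.4 and 67.8 in small, 86.6, 79.9, 54.9, 41.2 and 77.0 in medium and 61.7, 51.2 and 75.7 in large arteries. The groups overlapped, and the differences were 0.54 ± 0.29 and 0.46 ± 0.33 (limma adjusted p 0.356 and 0.535). The probe of its receptor chain IL1RL1, or ST2, lay near the floor, with 3 of 12 arteries at it. IL34, a second ligand of the macrophage growth factor receptor CSF1R, had intensities of 0.516, 0.332, 0.665 and 0.765 in small, 0.824, 0.678, 0.745, 0.364 and 0.840 in medium and 1.06, 1.03 and 1.14 in large arteries. The 3 large arteries lay above all 9 others, while medium and small overlapped. Large exceeded small by 0.99 ± 0.33 and medium exceeded small by 0.29 ± 0.29 (adjusted p 0.164 and 0.644). CSF1R, taken from the macrophage markers, rose by 2.17 in medium (adjusted p 0.00900) and stood at 1.72 in large (adjusted p 0.0695).

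IL1A, an IL-1 receptor agonist, differed by 0.20 and 0.23 on the brighter of its probes and 0.50 and 0.32 on the other, in medium and large. IL1B and IL1RN, the secreted IL-1 agonist and its natural antagonist, appear only on probes that carry several gene symbols, 2 in number, and were not used. IL32, a cytokine of lymphocytes and NK cells, differed by 0.18 and -0.16. Its symbol does not appear in the macaque gene annotation. IL5, the eosinophil growth factor, was singled out after its values were seen, for its response to 1 artery. Small replicate 1 stood at 1.75 and the other small arteries at 9.80, 11.0 and 8.10, with medium at 3.55, 4.93, 5.43, 5.15 and 4.30 and large at 3.10, 3.56 and 3.48. The difference in large was -0.89 ± 0.50 (limma adjusted p 0.413) over all arrays, and without small replicate 1 IL5 passed as lower, so that 2 members were called there.

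**Figure D2:**
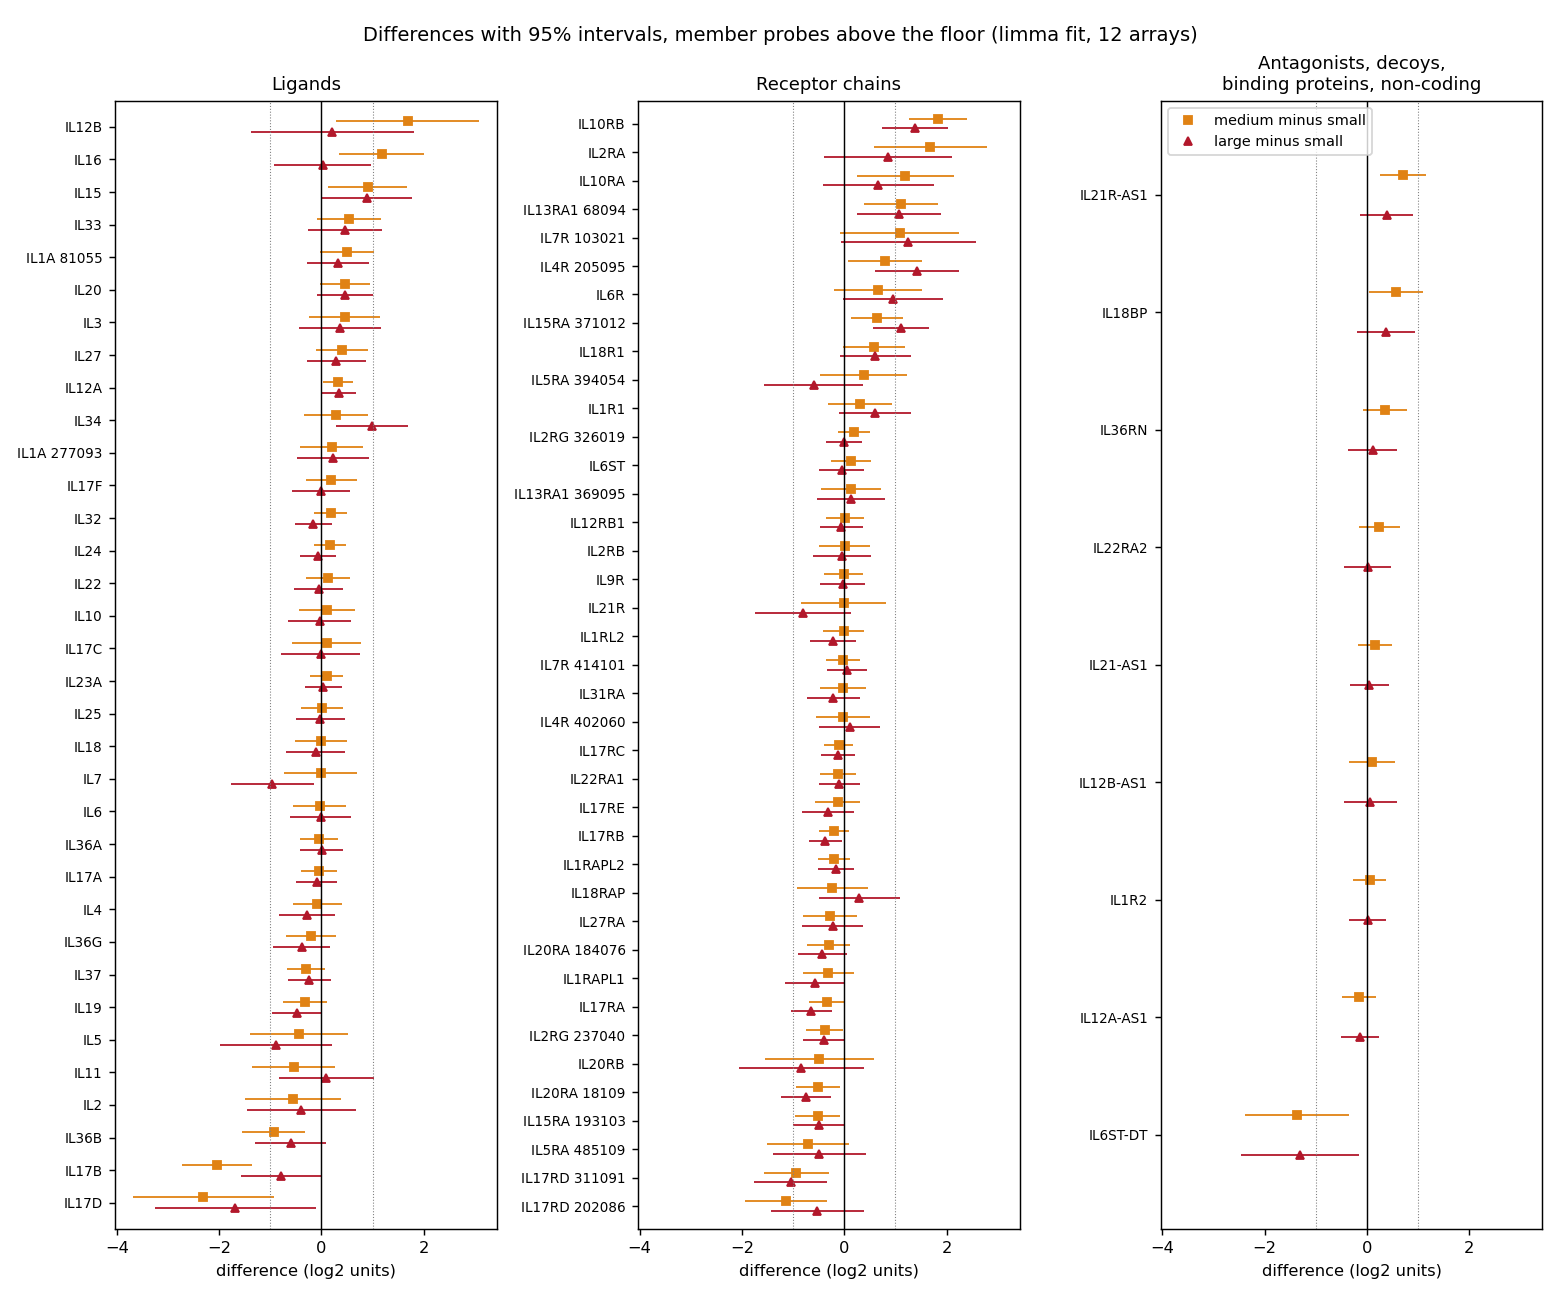
Difference from small in log2 units for the 82 members above the floor, ligands, receptor chains and the remaining probes apart, with medium as orange squares, large as red triangles and 95% intervals as lines. Most intervals cross 0. In medium, IL10RB at the top of the receptors and IL17B near the foot of the ligands are the only members called after adjustment. Other intervals, such as that of IL17D (-3.69 to -0.93), also lie clear of 0 in medium.

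Among receptor chains, the IL-4 and IL-13 receptor is a pair of IL4R and IL13RA1, which macrophages and smooth muscle both carry. IL4R had intensities of 8.32, 6.11, 9.51 and 6.41 in small, 22.1, 8.34, 10.0, 20.0 and 9.64 in medium and 14.9, 17.2 and 31.0 in large arteries on its brighter probe. The large arteries lay above all small ones, and medium overlapped both. It differed by 0.79 ± 0.33 in medium (limma adjusted p 0.230) and 1.42 ± 0.38 in large (adjusted p 0.0908), the largest positive value of any member in large. The dimmer IL4R probe gave -0.03 and 0.10.

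IL13RA1 had intensities of 4.20, 4.65, 1.72 and 5.32 in small, 11.9, 9.73, 5.53, 6.21 and 7.58 in medium and 9.57, 6.58 and 7.14 in large arteries. All 8 medium and large arteries lay above the 4 small ones. The differences were 1.11 ± 0.33 and 1.07 ± 0.38 (limma adjusted p 0.101 and 0.195), so neither passed, and a dimmer probe gave 0.14 and 0.14. Of their ligands, IL4, named after its values were seen, differed by -0.08 and -0.29 and the IL13 probe lay near the floor. The decoy IL13RA2 lay near the floor too.

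IL15RA, which presents IL-15 to neighbouring cells, came closest to a call among the other receptors in large plaque. One probe had intensities of 0.499, 0.494, 0.919 and 0.806 in small arteries, 1.12, 1.04, 1.03 and 0.908 in 4 of the medium ones, medium replicate 1 being empty, and 1.63, 1.18 and 1.45 in large ones. The 3 large arteries lay above all others. It differed by 0.64 ± 0.23 in medium (limma adjusted p 0.166) and 1.11 ± 0.25 in large (adjusted p 0.0599, from 0.0227 to 0.238 over 21 alternatives, of which it passed under 5). Leaving out small replicate 3 was one of these 5 (0.0334). Its other probe, of similar brightness, read 1.02, 0.883, 1.51 and 0.947 in small, 0.669, 0.771, 0.852, 0.698 and 0.740 in medium and 0.565, 0.915 and 0.827 in large arteries. That probe was lower in every medium than in every small artery, at -0.52 ± 0.20 and -0.50 ± 0.23. The 2 probes of IL15RA gave differences of opposite sign, and which of them reports the monkey transcript was not tested.

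Among the other chains of the common gamma group, IL2RA, the high-affinity IL-2 receptor chain of activated and regulatory T cells, had intensities of 0.227, 0.324, 0.0738 and 0.338 in small, 1.46, 0.431, 0.606, 0.449 and 1.27 in medium and 0.195, 0.788 and 0.459 in large arteries. Medium lay above small in every artery, large overlapped both, and small replicate 3 was set to the floor. The differences were 1.69 ± 0.50 and 0.85 ± 0.57 (limma adjusted p 0.0978 and 0.506). Beside it, 1 of 12 measured T cell markers rose in medium, CD27 by 1.66 (adjusted p 0.0352), and 0 in large. The summed T cell markers ran from 26.9 to 39.1 in small, 40.1 to 56.4 in medium and 29.3 to 48.3 in large, with CD4 near the floor, and their part in the IL2RA values was not tested.

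IL7R, the IL-7 receptor chain of resting T cells, had intensities of 3.20, 0.649, 0.903 and 0.368 in small, 1.83, 1.39, 2.09, 2.17 and 2.39 in medium and 4.57, 1.55 and 1.44 in large arteries on its brighter probe. Small replicate 1 lay far above the other small arteries and inside the range of the other groups. The differences were 1.09 ± 0.53 and 1.25 ± 0.61 (limma adjusted p 0.306 and 0.340), and a second probe gave -0.02 and 0.05. IL2RG differed by -0.38 and -0.39 on one probe and 0.19 and -0.01 on the other. IL2RB, the chain shared by IL-2 and IL-15, differed by 0.01 and -0.03; it was named after its values were seen.

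Of the IL-1 receptor family, IL1R1, the signalling receptor of IL-1, differed by 0.31 ± 0.29 in medium and 0.60 ± 0.32 in large (limma adjusted p 0.614 and 0.389), and IL18R1, the IL-18 receptor chain, by 0.59 ± 0.28 and 0.61 ± 0.32 (adjusted p 0.289 and 0.376). IL1RAP, the accessory chain of the IL-1 receptor, lay near the floor. Among antagonists and decoys, IL1R2, the IL-1 decoy receptor, differed by 0.05 (95% interval -0.27 to 0.37) and 0.01 (-0.35 to 0.38). IL18BP, which neutralizes IL-18, differed by 0.57 ± 0.24 and 0.38 ± 0.26 (adjusted p 0.232 and 0.515), with medium replicate 5 empty. IL22RA2, the soluble IL-22 binding protein, differed by 0.24 and 0.01.

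Among the non-coding probes, IL6ST-DT, a transcript read from the promoter region of IL6ST in the other direction, had intensities of 1.05, 0.875, 1.17 and 1.26 in small, 0.0496, 0.673, 0.660, 0.394 and 0.654 in medium and 0.310, 0.490 and 0.533 in large arteries. All 8 medium and large arteries lay below the small ones, and medium replicate 1, set to the floor, was the lowest. The differences were -1.37 ± 0.47 (limma adjusted p 0.142) and -1.32 ± 0.53 (adjusted p 0.250). Without medium replicate 1 the difference in large passed (adjusted p 0.0340), in a range of 0.0340 to 0.557. IL21R-AS1 differed by 0.70 and 0.39 (adjusted p 0.0978 and 0.459), IL12A-AS1 by -0.15 and -0.13, and IL21-AS1 by 0.16 and 0.04.

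Set aside were 13 probes whose mean lay less than 1 log2 unit above the floor, 13.7% of the members against 20.3% of all tested probes. They were IL13, IL21, IL26, IL1F10 and 1 probe of IL16 among ligands, IL1RAP, IL1RL1, IL3RA and 1 probe each of IL17RB, IL31RA, IL6R and IL6ST among receptors, and the decoy IL13RA2. For 8 of these genes no brighter probe was present. A low reading here can come from little transcript or from a human probe that binds the monkey sequence poorly, which cannot be told apart. Of the 95 probes, 77 had no value at the floor.

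Over all 95 probes the differences from small had a median of -0.02 in medium and -0.06 in large, beside -0.09 and -0.10 over all tested probes. Positive differences made up 44.2% of the members in medium and 37.9% in large, against 40.8% and 40.1%. For 59 of 95 probes in medium (62.1%, against 59.7% of all probes) and 52 in large (54.7%, against 50.8%) the 95% interval lay within 1 log2 unit either way, so for these a 2-fold difference lies outside the interval. Differences of at least 1 log2 unit in size made up 12 of the 95 members in medium (12.6%, against 6.08% of all probes) and 9 in large (9.47%, against 6.91%). The 12 in medium include both IL16 probes, which differed in opposite directions. Small and medium arteries did not overlap for 13 members, 13.7% against 8.28% of all probes, with 6 higher (against 3.94%) and 7 lower (against 4.34%) in medium. Small and large did not overlap for 12, 12.6% against 14.5%. All 8 medium and large arteries lay on one side of the small ones for 5 members, 5.26% against 5.16%. IL10RB, IL12A and IL13RA1 lay above (3 members, against 2.62%), and IL17RD and IL6ST-DT below (2 members, against 2.54%). For IL13RA1 and IL17RD this held for the brighter probe only. At an unadjusted p under 0.05, 22 members (23.2%, against 18.3% of all probes) differed in medium, 12 higher (against 7.83% of all probes) and 10 lower (against 10.5%), and 16 (16.8%, against 16.1%) in large.

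**Figure D3:**
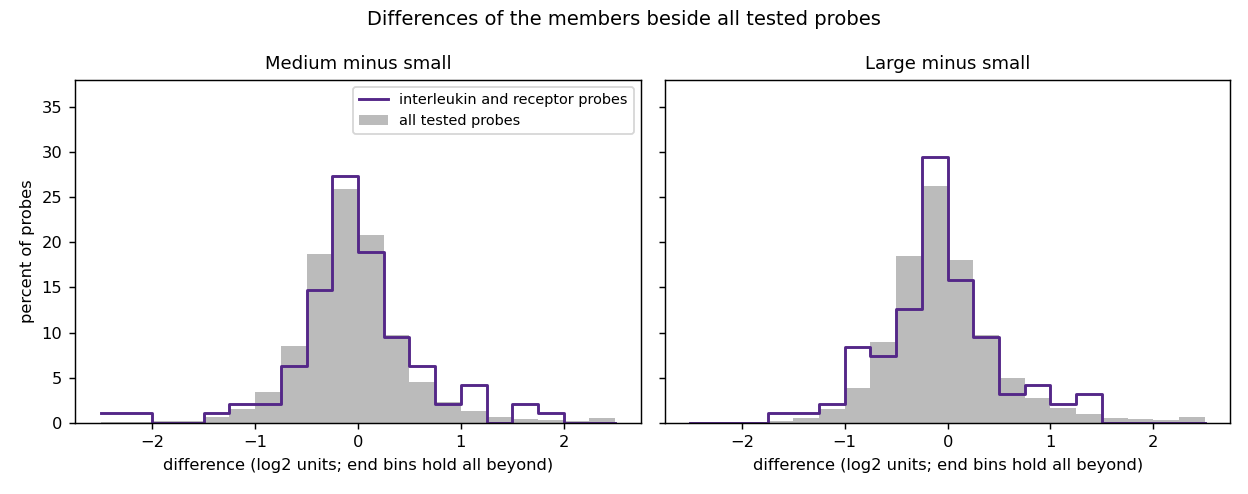
Share of probes, in percent, by difference from small in bins of log2 units, with all tested probes as grey bars and the 95 interleukin and receptor probes as a purple line, medium at left and large at right. Both distributions centre near 0, with member medians of -0.02 and -0.06. Differences of at least 1 log2 unit made up 12.6% of member probes against 6.08% of all in medium and 9.47% against 6.91% in large. In medium these include both IL16 probes, with opposite signs.

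Large and medium plaques were then compared directly. By limma 0 members passed, as did 0 of all 53877 probes (0%), and 5 members (5.26%, against 5.04%) had an unadjusted p under 0.05. The 95% interval lay within 1 log2 unit for 63 of the 95 members, 66.3% against 61.6% of all probes. Medium and large did not overlap for 5 members, 5.26% against 5.47% of all probes. They were IL17B, IL15RA and IL34, higher in large (3, against 2.53%), and IL17RA and IL32, lower in large (2, against 2.93%). For IL15RA this held for the brighter probe only, and its dimmer probe gave 0.02 for large minus medium. Large minus medium was -0.34 ± 0.16 for IL32 and -0.30 ± 0.18 for IL17RA.

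Plaque area in mm2 in place of the groups gave 0 member calls over the 12 arteries, against 0.583% of all probes, with 18 members at an unadjusted p under 0.05 (18.9%, against 15.9%). The lowest value was that of the brighter IL4R probe (limma adjusted p 0.0695). Its slope was 1.77 ± 0.42 log2 units per mm2 (SE, n = 12). The brighter IL15RA probe followed at 1.29 ± 0.30 (adjusted p 0.0709, 11 arteries). The second probes did not repeat this: the dimmer IL4R probe had a slope of 0.12 ± 0.32. The dimmer IL15RA probe had one of -0.72 ± 0.27, opposite in sign. IL10RB had a slope of 1.85 ± 0.59 (adjusted p 0.148). The count was 1 without small replicate 1 (IL5), 2 without medium replicate 1 (IL4R and IL6ST-DT) and 1 without large replicate 1 (IL4R). Such a slope cannot tell a graded course with area from a single step after the small group. Within the 8 medium and large arteries 0 members passed, as did 0 of all probes (0%), and 5 had an unadjusted p under 0.05 (5.26%, against 5.5%). There IL17B had a slope of 2.01 ± 0.82 and IL12B of -3.60 ± 1.29 per mm2 (adjusted p 0.878 and 0.831).

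Several probes of a gene did not always give the same reading. For 14 of the 81 genes 2 probes were tested, and their differences had the same sign for 6 genes in medium and 11 in large against small. Mean levels of the pair lay between 0.17 and 5.43 log2 units apart, with a median of 1.58, and by at least 2 log2 units for 5 genes. For IL16, IL6R, IL6ST, IL17RB and IL31RA the dimmer probe lay near the floor. IL10RB and IL17B had 1 probe each, so their calls have no second probe beside them.

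**Figure D4:**
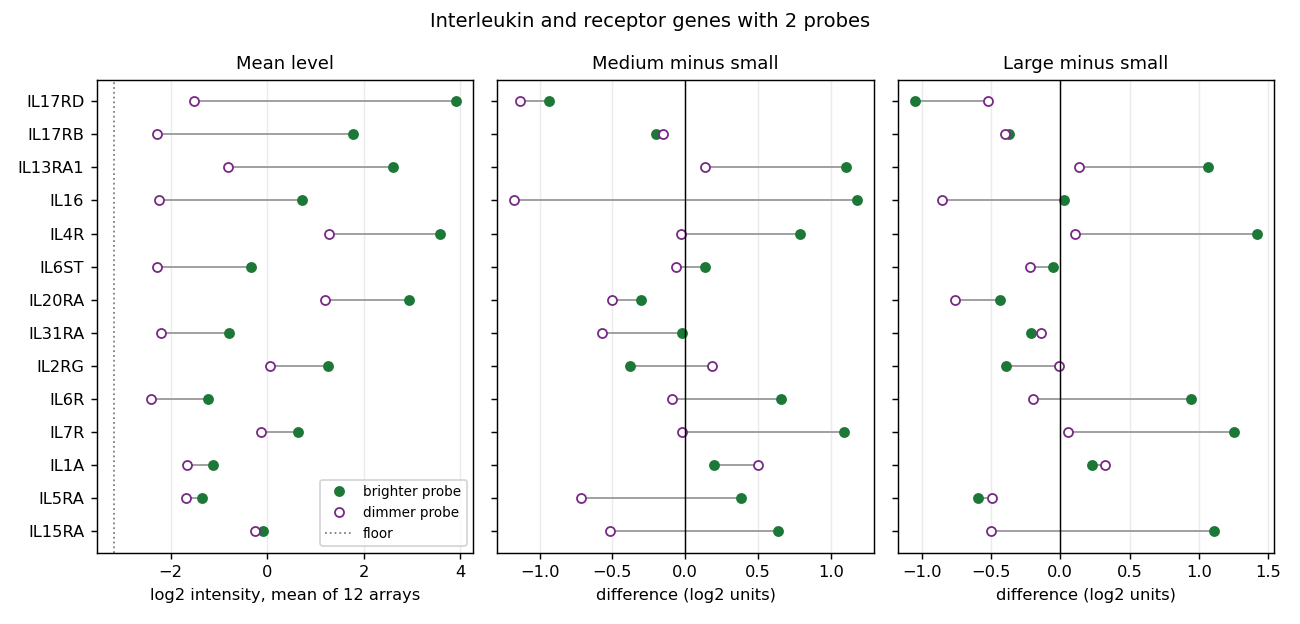
The 14 genes with 2 probes, with the mean log2 intensity over 12 arrays at left and the differences of medium and large from small in log2 units at centre and right. Filled points are the brighter probe and open points the dimmer one, joined by a line; IL17RD has the pair furthest apart in level, at 5.43 log2 units, and IL15RA the pair closest in level, at 0.17, with differences of opposite sign.

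Genes that carry or restrain interleukin signals were taken from lists. Over all tested probes 1.97% rose in medium and 0.948% in large against small by limma at an adjusted p under 0.05. The lists were chosen with earlier results of these data known, so their counts describe the listed genes only. CXCL8, interleukin 8 by its older name and the main neutrophil chemoattractant, is not matched by the naming rule. Its intensity was 0.889 to 2.97 in small, 13.0 to 33.2 in medium and 17.8 to 31.2 in large arteries. Every medium and large artery lay above every small one, medium and large overlapped, and CXCL8 was the 1 of 9 related cytokines and partner receptors that rose, in both comparisons. CXCR2, one of its receptors, stood at -1.08 in medium (limma adjusted p 0.0533) and -1.10 in large. None of 9 measured JAK and STAT genes passed in medium or large (medians 0.09 and 0.07), and neither did any of 10 NF-kB response and acute phase genes (0.17 and 0.09).

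Among 14 suppressors of cytokine signalling and phosphatases, 2 rose in medium and 1 in large, with medians of 0.04 and -0.03. PTPN6, the phosphatase SHP-1 of blood cells, rose by 2.84 in medium (limma adjusted p 0.000410) and 2.41 in large (adjusted p 0.00426). PTPN2, a phosphatase of JAK proteins, rose by 1.46 in medium (adjusted p 0.0382). SOCS3, the inhibitor induced by IL-6, stood at -0.88 (adjusted p 0.163).

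Of 11 genes downstream of the IL-1 receptor 0 passed in either group comparison, with medians of 0.43 and 0.46. MYD88, their adaptor, stood at 0.92 in medium and 1.33 in large (limma adjusted p 0.0783 and 0.0519) and rose with plaque area over the 12 arteries (adjusted p 0.0391). Of 7 inflammasome and caspase genes, which process IL-1 and IL-18, 2 rose in medium and 1 in large. CASP4 rose by 3.02 and 3.44 (adjusted p 0.00667 and 0.0128), and CASP5 by 1.25 in medium (adjusted p 0.0389). CASP4 and CASP5 are related in sequence, so a probe for one may bind the other's transcript. NLRP3, AIM2 and PYCARD lay near the floor. The 7 macrophage markers that rose in medium and the 6 in large did so in the same arteries, and their part in these rises was not tested.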

How the data were processed

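Transcripts of 12 iliac arteries, 1 per animal, were measured on single-dye CodeLink arrays of human probes, per the labels' protocols. The deposited values are linear intensities, scaled by the authors to an array median close to 1, and some lie below 0. How images were read, background was removed and values were scaled was not given in the sources used here. Replicates were separate animals. The number of arrays limits the precision.

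Readings under the floor of 0.111 were raised to it, which touched 5.45% of values, and log2 was taken. Differences from values at the floor are understated. Probes with at least 2 values per group were kept. Each was fitted with limma 3.58.1 in R 4.3.3 (lmFit, 3 group means over 12 arrays, eBayes), and further fits gave the slope on plaque area over 12 and over 8 arrays. P-values are two-sided, adjusted by Benjamini-Hochberg over 53877 probes, with a threshold of 0.05. The fits were tested on simulated data with known changes. Those changes were larger than most differences here, and the simulated probes varied independently and were not held to a floor.

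Symbols came from the platform annotation, which can be old. Of the 81 genes 75 appear by symbol in the macaque annotation T2T-MFA8v1.1, used for names and gene order. IL32 and the 5 non-coding transcripts do not. Roles and families were assigned from general knowledge. The members and lists were chosen with earlier results of these data known. Named were called members, those with an unadjusted p under 0.05 and a difference of at least 1 log2 unit, the 3 brightest per role, and a fixed list of well-known interleukins; up to 4 genes per pathway list, by smallest p in medium against small, and the brightest probe of each, were added. Genes outside this rule are marked as such, or appear only in a list of near-floor or non-overlapping probes. Alternatives covered normalization, floor, dim and incomplete probes, variance model, array weights, samples in the fit, the scale of area, a replicate block, and arteries left out.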

Additional observations from a re-analysis of the deposited data

Results flagged for a closer look

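In 8 of 98 groups of members examined, 1 artery stood far from the others of its group by Dixon's criterion, which chance meets in about 1 group in 20. IL10RA, the IL-10 binding chain, had an intensity of 2.20, against 0.580 to 0.616 in the other 4, in medium replicate 3. That artery also stood apart on the dimmer IL13RA1 probe, at 0.480, against 0.597 to 0.651 in the other 4, and on the brighter IL6ST probe, at 1.19, against 0.737 to 0.832 in the other 4. IL17RD reached 44.4, against 18.2 to 20.7 in the other 3, in small replicate 3, which bears on its difference from small. IL6 was 6.10, against 3.00 to 3.67 in the other 4, in medium replicate 5, and IL34 was 0.364, against 0.678 to 0.840 in the other 4, in medium replicate 4. One IL2RG probe read 1.43, against 1.02 to 1.08 in the other 4, in medium replicate 1. IL12A-AS1 read 3.19, against 3.86 to 3.99 in the other 4, in medium replicate 2.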

How the results depend on the processing

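The medium against small calls of IL10RB and IL17B were kept under all 22 alternatives, with 2 to 3 members called. In large against small the count of 1 was 0 with the floor at the 1st percentile, with only the compared groups, with the replicate number as a block, and without small replicate 4 and medium replicate 5 together, which have identity numbers unlike the rest. It was 2, with IL15RA added, with the floor at the 10th percentile, dim probes left out, a trended robust variance or array weights. Leaving out 1 artery gave 0 to 2. The replicate block gave 2, 0 and 0 member calls in medium against small, large against small and large against medium. Of 10 same-number pairs of arteries, 4 correlated above 0.1 (r from -0.16 to 0.22). Such correlations were less frequent among the 37 other pairs, though their range was similar (-0.20 to 0.23). Whether replicate numbers pair the arteries was not settled by these values. The slope over 12 arteries gave 2 calls with the trended robust variance (IL15RA and IL4R), 3 on the square root of area (IL10RB, IL4R and IL7R), and 0 to 2 without single arteries. Large against medium and the slope within 8 arteries gave 0 members under every alternative run. With 2 log2 units above the floor as the limit, 27 probes would be set aside in place of 13. No sign of a called member reversed. With 3 large arteries, differences under 1 log2 unit are often within the interval.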

Other observations

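Several members are neighbours in the macaque gene order, of which only the order was used. The cluster of IL10, IL19, IL20 and IL24 gave differences from -0.31 to 0.46 in medium and -0.48 to 0.46 in large against small, and 0 of its 4 probes had an unadjusted p under 0.05 by limma. The receptor cluster of IL1R2, IL1R1, IL1RL2, IL1RL1, IL18R1 and IL18RAP ranged from -0.35 to 0.59 and from -1.01 to 0.61, with 0 of 6. The cluster of IL1A, IL37, IL36G, IL36A, IL36B, the antagonist IL36RN and IL1F10 ranged from -0.93 to 0.50 and from -0.60 to 0.32. Of its 8 probes 1 had an unadjusted p under 0.05 by limma in medium and 0 in large. The type 2 cytokines IL5, IL13 and IL4 ranged from -0.44 to -0.08 and from -0.89 to -0.23, with 0 of 3. The adjacent receptor genes IL15RA and IL2RA had 3 probes, all with an unadjusted p under 0.05 in medium and 2 of them in large, from -0.52 to 1.69 and from -0.50 to 1.11. The 2 IL15RA probes went in opposite directions, at 0.64 and -0.52 in medium, so the pair of genes shows no shared direction. Over all tested probes 18.3% in medium and 16.1% in large had an unadjusted p under 0.05. Other groups of neighbours are not described here. None of the probes in the clusters named was called after adjustment.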
